A study of Mus musculus with 8 samples.

Results

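Natural killer (NK) cells and type 1 innate lymphoid cells (ILC1) are closely related lymphocytes without a rearranged antigen receptor, and 7 genes by which they are commonly told apart were followed in immune cells from beta cell grafts: Eomes, Tbx21, Zfp683, Itga1, Itga2, Cxcr6 and Tnfsf10. They were chosen by name and are 7 of the 32285 genes in the deposited count table. Wild-type (WT) or Rnls mutant NIT-1 cells, a beta cell line from the non-obese diabetic (NOD) mouse, were implanted under the skin on opposite flanks of immunodeficient NOD.scid mice, which lack T and B cells but keep their own NK cells. All mice then received splenocytes from diabetic NOD mice, and the grafts were removed 10 or 17 days after this transfer. CD45+ cells were sorted, marked by graft with hashtag antibodies and sequenced in 4 droplet libraries, 1 for each genotype and day, with 4 grafts in each. The Rnls mutation is carried by the grafted beta cells and not by the immune cells measured, so that Rnls counts check no label here. Host and donor NK cells were not told apart, and the labels give no age of the mice and do not say which WT graft shared a mouse with which mutant graft.

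The count table held 22441 cells from 16 grafts, with between 1742746 and 9729233 unique molecular identifiers (UMIs, each standing for 1 captured transcript) per graft. The authors' annotation gave 1515 NK cells, with 13 to 261 in each of the 16 grafts, and 221 ILC1, with 10 or more in 8 grafts and 1 to 60 per graft overall. All cells had at least 1001 UMIs, and 84 cells carried a barcode that also occurs in another library. Day and genotype could not be told apart from the library, as each combination was a single library.

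In textbook accounts, NK cells circulate, kill infected or transformed cells and depend on the T-box transcription factor Eomes. ILC1 reside in tissues, secrete interferon gamma and depend on T-bet, the T-box factor encoded by Tbx21, with little or no Eomes. Zfp683 encodes Hobit, a transcription factor of tissue-resident lymphocytes. Itga2 (CD49b, the antigen of the DX5 antibody) and Itga1 (CD49a) are alpha subunits of collagen-binding integrins that both pair with Itgb1 and mark NK cells and ILC1, respectively. Cxcr6 is the receptor for the chemokine Cxcl16 and retains lymphocytes in tissues, and Tnfsf10 encodes TRAIL, a ligand that triggers cell death through Tnfrsf10b.

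The annotated labels were checked against marker genes. Levels are given as CPM, the UMIs of a gene per 1000000 UMIs of all genes after adding up all cells of 1 type from 1 graft. The summed level of 8 NK cell markers, the granzyme gene Gzma among them, had a median of 10840 CPM in NK cells, 2589 in ILC1 and 2683 in CD8 T cells. That of 8 ILC1 markers had a median of 1952 in NK cells and 3983 in ILC1. Ncr1 and Klrb1c were in both lists, and Ncr1 was found in a larger share of ILC1. The share was 57.2% of NK cells, against 83.3% of ILC1 with a Cxcr6 UMI and 73.5% of ILC1 without. The granzyme Gzma averaged 7362 CPM in NK cells against 462 in ILC1, the Ly49 receptor Klra8 502 against 18.5, the inhibitory receptor Cd200r1 5.00 against 81.5 and the interleukin-7 receptor Il7r 20.3 against 146. Of the T cell receptor complex, Cd3g was found in 35.2% of NK cells, Cd3d in 20.7% and Cd3e in 0.792%, and 9 summed T cell genes had a median of 1025 CPM in NK cells and 975 in ILC1 against 6064 in CD8 T cells. Cd8a and Cd8b1 were at 0 in ILC1. The 4 listed regulatory T cell genes summed to a median of 919 CPM in ILC1 (range 214 to 1631), 345 in NK cells and 445 in CD8 T cells, with Foxp3, their defining factor, at 0 in ILC1. The labels name the graft as beta cells, whereas the sorted cells were CD45+, and of 4 beta cell genes Ins1, Iapp and Chga were at 0 in NK cells and Ins2 reached at most 2.07 CPM, while all 4 were at 0 in ILC1.

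The promoters of the 4 members whose levels separated NK cells from ILC1 in every graft are printed because these genes form opposite pairs: Eomes and Itga2 were the NK cell genes, Cxcr6 and Itga1 the ILC1 genes. RefSeq (GRCm38.p6, the same assembly as the mm10 of the submitters' notes) held an entry for 6 of the 7 members, and Zfp683 had none. Each run is the 250 bases before the start annotated for that entry, 5′ to 3′ on the gene's strand, and capitals mark a match to the Runx core motif. For Eomes and Cxcr6 this start is not that of the gene positions given further below. The Eomes window ends short of the position given there, and the Cxcr6 window reaches it. The windows are chr9:118477939-118478188 on the plus strand for Eomes, chr13:114932101-114932350 on the minus strand for Itga2, chr9:123806227-123806476 on the plus strand for Cxcr6 and chr13:115101965-115102214 on the minus strand for Itga1.
Eomes: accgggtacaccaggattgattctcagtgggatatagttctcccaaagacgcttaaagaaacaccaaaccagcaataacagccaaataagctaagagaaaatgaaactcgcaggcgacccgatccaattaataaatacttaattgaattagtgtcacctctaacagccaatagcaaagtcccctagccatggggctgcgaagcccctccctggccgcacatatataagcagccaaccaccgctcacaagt
Itga2: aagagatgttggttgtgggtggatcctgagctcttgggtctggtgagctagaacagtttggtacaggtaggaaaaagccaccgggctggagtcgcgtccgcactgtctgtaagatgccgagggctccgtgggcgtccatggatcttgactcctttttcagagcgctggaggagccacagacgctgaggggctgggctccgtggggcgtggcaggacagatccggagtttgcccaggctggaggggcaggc
Cxcr6: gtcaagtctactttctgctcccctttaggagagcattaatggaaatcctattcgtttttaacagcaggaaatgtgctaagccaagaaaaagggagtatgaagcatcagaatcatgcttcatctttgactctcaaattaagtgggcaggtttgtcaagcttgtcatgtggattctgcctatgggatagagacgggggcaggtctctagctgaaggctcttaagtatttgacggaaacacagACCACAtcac
Itga1: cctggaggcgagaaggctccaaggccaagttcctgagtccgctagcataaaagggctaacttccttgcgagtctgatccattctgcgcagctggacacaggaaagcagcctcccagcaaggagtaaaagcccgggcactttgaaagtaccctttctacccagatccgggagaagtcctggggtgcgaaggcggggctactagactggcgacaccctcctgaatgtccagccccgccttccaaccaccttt
The Itga2 and Itga1 windows were richer in G and C, at 60.8% and 57.6%, than those of Eomes and Cxcr6, at 46.4% and 43.6%. Both strands were searched for the T-box core GGTGTGA (present in 3.33% of 32851 mouse promoters of this length), for its shorter form GGTGTG, which every match of the first also holds (16.3%), and for the Runx core TGTGGT (14.05%). Of the 6 windows, only that of Cxcr6 held a match, 1 Runx core read on the opposite strand as ACCACA, and none held either T-box form. A match is a description of letters and not a binding site.

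The genes lie on 5 chromosomes of mm10. Eomes (chr9:118478212-118486132) and Cxcr6 (chr9:123806475-123811760) share chromosome 9. Itga1 (chr13:114953096-115101964) and Itga2 (chr13:114833081-114932100) are neighbours on the minus strand of chromosome 13, separated by 20995 bases, and showed opposite levels in the comparison of NK cells with ILC1. Tbx21 (chr11:97098071-97115331), Tnfsf10 (chr3:27317028-27342427) and Zfp683 (chr4:134053838-134058996) lie on other chromosomes.

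NK cells carried Eomes and Itga2 and ILC1 carried Cxcr6 and Itga1, whereas Tbx21 was present in both. Levels were compared within the 8 grafts that had at least 10 ILC1. The annotation was made from clusters of these same transcripts, so the differences between cell types are descriptions and carry no test. Eomes and Itga2 were higher in NK cells in every graft and over 2-fold higher on average, as were 2.31% of the 6185 genes with a mean of at least 20 CPM in either type. Cxcr6 and Itga1 were lower in NK cells in every graft and over 2-fold lower on average, as were 1.02%.

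Eomes ranged from 235 to 567 CPM over the 16 grafts in NK cells, with a median of 399, and from 0 to 175 in ILC1, with a median of 30.6. The mean was 399.8 ± 105 in NK cells and 45.3 ± 55.7 in ILC1 of the same grafts (SD, n = 8), 8.82-fold higher in NK cells, and the ranges did not overlap. The highest ILC1 value of these 8 grafts, 175, came from mutant day 10 graft 1, where NK cells stood at 351. Without this graft the log2 ratio of NK cells to ILC1 was 3.92 in place of 3.14. The 1002 Eomes UMIs of NK cells stood against 29 in ILC1.

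Itga2 ranged from 104 to 269.5 CPM in NK cells, with a median of 145, and from 0 to 25.4 in ILC1, with a median of 13.5. The mean was 160.1 ± 52.5 against 11.3 ± 10.3 (SD, n = 8), 14.1-fold higher in NK cells. The NK cell range lay wholly above that of ILC1, in which only 6 UMIs of this integrin were counted.

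Cxcr6 ranged from 107 to 1393 CPM in ILC1, with a median of 616, and from 0 to 219.8 in NK cells, with a median of 66.0. The mean was 64.2 ± 67.9 in NK cells and 657 ± 404 in ILC1 (SD, n = 8), 10.2-fold lower in NK cells. NK cells were lower in 8 of 8 grafts, but the ranges overlapped, because ILC1 of mutant day 10 graft 1 stood at 107 and NK cells of mutant day 10 graft 3 at 219.8. Without that graft 3 the log2 ratio of NK cells to ILC1 was -3.99 in place of -3.36. The ILC1 of mutant day 10 graft 1 thus had both the highest Eomes and the lowest Cxcr6 among ILC1 of these 8 grafts. Among the grafts left out, WT day 10 graft 3, with 5 ILC1, had Eomes at 271 and Cxcr6 at 54.2 CPM.

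Itga1 ranged from 61.3 to 224 CPM in ILC1, with a median of 117, and from 0 to 104 in NK cells, with a median of 37.5. The mean was 46.9 ± 27.0 in NK cells and 131 ± 50.8 in ILC1 (SD, n = 8), 2.80-fold lower in NK cells, again in 8 of 8 grafts. The ranges overlapped over all grafts but not within either day, where NK cells averaged 27.5 against 98.9 at day 10 and 66.3 against 163 at day 17.

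Tbx21 separated the types least among the genes with more than a few UMIs. Its mean was 216 ± 74.6 CPM in NK cells and 299 ± 163 in ILC1 (SD, n = 8), lower in NK cells in 5 grafts and higher in 3. At day 10 the means were 193 and 179, and at day 17 they were 239 and 419, 1.75-fold lower in NK cells and lower in 4 of 4 grafts. Whether this difference itself changed with day was not tested.

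Tnfsf10 averaged 10.9 ± 5.86 CPM in NK cells and 61.8 ± 68.3 in ILC1 (SD, n = 8), lower in NK cells in 6 grafts, and ILC1 values spread from 0 to 215. The highest of these was in WT day 17 graft 2, and counts were low, with 27 UMIs in NK cells and 36 in ILC1. Zfp683 was close to absent, with 3 UMIs over all NK cells and 0 over all ILC1. No ratio was drawn for it.

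**Figure D1:**
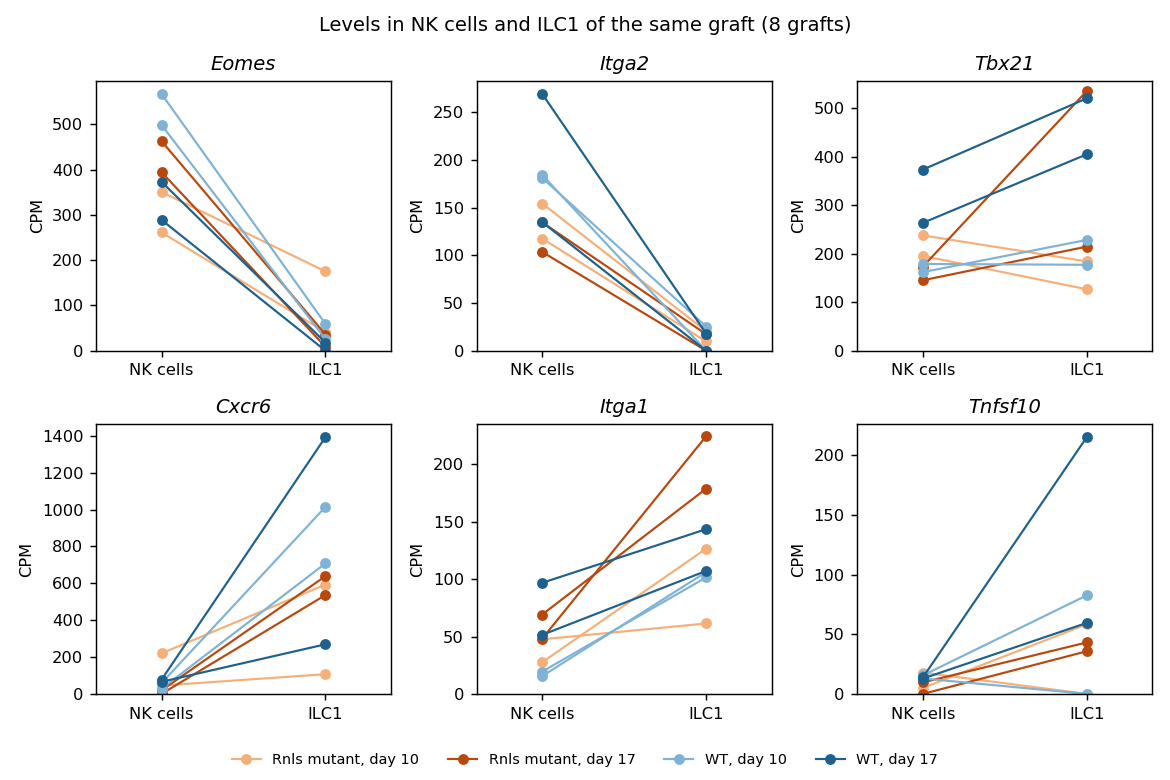
Level of 6 members in NK cells and ILC1 of the same 8 grafts, in CPM, with a line joining the cell types of each graft and marks for genotype and day. Eomes and Itga2 were lower in ILC1 in all 8 grafts, Cxcr6 and Itga1 were higher in all 8, and Tbx21 was higher in 5.

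The share of single cells with a UMI gave the same picture. Eomes was found in 58.3% of NK cells (exact binomial 95% confidence interval 55.8 to 60.8) and in 9.05% of ILC1 (5.62 to 13.6), and Itga2 in 27.1% (24.8 to 29.4) and 3.17% (1.28 to 6.42). Cxcr6 was found in 8.38% of NK cells (7.04 to 9.89) and 62.4% of ILC1 (55.7 to 68.8), and Itga1 in 6.47% (5.28 to 7.83) and 34.4% (28.1 to 41.1). Tbx21 was found in 36.0% and 47.1%, and Tnfsf10 in 2.38% and 13.1%. Median depth over both days together was 2411 UMIs per NK cell and 2657 per ILC1. Within a day it differed, at 2288.5 and 3916 at day 10 and 3064 and 2346 at day 17. The intervals cover counting error only.

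Macrophages, which should lack most of these transcripts, had a median of 4719 UMIs per cell and served as the background. Eomes was found in 0.0836% of them, Itga2 in 0.139%, Tbx21 in 0.474% and Cxcr6 in 0.529%, all below the shares in NK cells and ILC1. Tnfsf10 was found in 2.37% of macrophages, and Itga1 in 5.49%, so that neither share in NK cells stood clear of that in macrophages. Macrophages were deeper, with 4719 against 2411 UMIs per cell, so these shares are not directly comparable. Per UMI, Itga1 averaged 42.8 ± 30.9 CPM in NK cells and 13.2 ± 6.75 in macrophages (SD, n = 16). Tnfsf10 averaged 8.67 ± 6.37 and 5.02 ± 2.42. Granulocytes, with a median of 1319 UMIs, held Itga1 in 0.542% of cells, and the 35 B cells in 5.71%. After each cell was thinned to 1000 UMIs, Itga1 remained in 1.98% of NK cells, 12.2% of ILC1 and 1.24% of macrophages. Eomes remained in 34.0% of NK cells and 3.17% of ILC1. Zfp683 was found in 3 of 1515 NK cells and 0 of 221 ILC1, where a floor of 3 counts limits the share of ILC1 with a UMI to 1.36% and sets no limit on cells that express the gene.

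Against CD8 T cells, NK cells were again set apart by Eomes, Itga2 and Cxcr6, but not by Itga1. Eomes averaged 391 ± 87.7 CPM in NK cells and 72.5 ± 40.2 in CD8 T cells (SD, n = 16), and Itga2 159 ± 48.7 against 2.81 ± 2.46, each higher in 16 of 16 grafts with no overlap. Over 2-fold higher levels in every graft were seen for 4.31% of 6032 genes. Cxcr6 averaged 75.5 ± 60.7 in NK cells and 528 ± 108 in CD8 T cells, 6.98-fold lower in NK cells in 16 of 16 grafts, a pattern shared by 2.9% of genes.

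Tbx21 averaged 223 ± 87.4 CPM in NK cells against 133 ± 71.3 in CD8 T cells, higher in 16 of 16 grafts, as were 5.69% of genes, although the ranges overlapped. Itga1, at 42.8 ± 30.9 and 43.2 ± 22.7, did not differ beyond its spread. CD4 T cells had Cxcr6 at 591 ± 139, Tbx21 at 109, Itga1 at 22.2 ± 15.4, Eomes at 14.8 and Itga2 at 6.12 CPM. NK cells were over 2-fold higher in every graft than CD4 T cells for Eomes and Itga2 (4.98% of 6088 genes) and lower for Cxcr6 (4.27%). Regulatory T cells (14 grafts) had Cxcr6 at 76.8 ± 88.3, beside 75.3 in NK cells of the same grafts, and little Eomes (4.30), Tbx21 (32.8) or Itga1 (4.43), while 5.45% of 6309 genes were over 2-fold higher in NK cells in every graft.

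Across the 10 annotated cell types with values per graft, Eomes and Itga2 were highest in NK cells by more than the spread of either neighbour. Cxcr6 was highest in ILC1, CD4 T cells and CD8 T cells, at 657, 591 and 528 CPM, and these neighbours did not differ beyond their spread. Tbx21 followed the order ILC1, NK cells, CD8 T cells and CD4 T cells, at 299, 223, 133 and 109, where only the gap between NK cells and CD8 T cells exceeded the SD of both neighbours, with overlapping ranges. Itga1 was highest in ILC1, at 131, and CD8 T cells (43.2), NK cells (42.8), dendritic cells (34.4 ± 25.9) and monocytes (33.2 ± 18.4) followed without separation. Zfp683 was found in 6 of 4876 CD4 T cells and 0 of 3449 CD8 T cells.

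**Figure D2:**
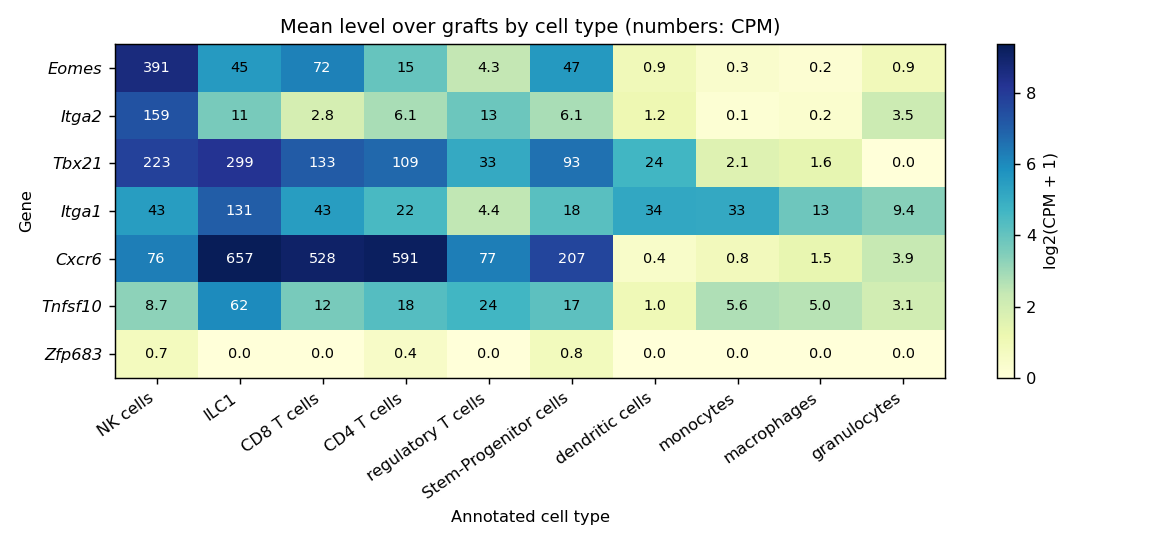
Mean level over grafts of the members in 10 annotated cell types, as log2(CPM + 1) on the colour scale, with the CPM printed in each field. NK cells held the highest Eomes and Itga2, ILC1 the highest Itga1, and Cxcr6 was shared by ILC1, CD4 and CD8 T cells. The mean of Tnfsf10 was also highest in ILC1, but within its spread. It was 61.8 ± 68.3 CPM there (SD, n = 8) and 24.1 ± 24.1 in regulatory T cells (SD, n = 14), with overlap.

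The genes whose levels were most like each member over the 12 cell types were named by Pearson's r on mean log2(CPM + 1), over 9541 genes. For Eomes these were Klrc3 (0.987), a member of the NKG2 receptor family, Sult2b1 (0.971) and Kcnip3 (0.969). For Cxcr6 they were the cytokine gene Ifng (0.976), the NKG2 family receptor Klrc2 (0.964) and Cd96 (0.964), a receptor of NK and T cells. For Tbx21 they were Arap2 (0.962), Tmsb15b2 (0.960) and 5830408C22Rik (0.955), for Itga2 Slc38a2 (0.896), Cuedc1 and Tshz3, for Itga1 Scmh1 (0.856), Cnot7 and Fzd5, and for Tnfsf10 Pvt1 (0.908), Abhd8 and Nup35. The 35 B cells and 13 mast cells, with no graft of at least 10 cells, entered as pooled values. Itga2 was found in 3 of the 13 mast cells, with 8 UMIs, so its r values rest in part on these few cells. Cell types share libraries and differ in depth, so the values of r are descriptive.

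Within the annotated NK cells, those with Cxcr6 had less Eomes, Itga2 and Klra8 and more Itga1 and Cd200r1 than those without. Eomes alone was found in 850 cells, Cxcr6 alone in 93, both in 34 and neither in 538, while ILC1 held 12, 130, 8 and 71 cells of these kinds. The 127 NK cells with a Cxcr6 UMI, median depth 2896 UMIs, were compared with the 1388 without, median depth 2383.5. In 11 grafts at least 3 NK cells had a Cxcr6 UMI, which allowed the direction to be counted by graft.

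Eomes was found in 26.8% of the NK cells with Cxcr6 and 61.2% of those without, and was lower in 11 of 11 grafts. Itga2 was found in 16.5% against 28.03%, lower in 10 of 11 grafts, and the Ly49 receptor Klra8, a marker of mature NK cells, in 11.0% against 58.0%, lower in 11 of 11. Itga1 was found in 22.8% against 4.97%, higher in 10 grafts and equal in 1, and Cd200r1 in 10.2% against 0.216%, higher in 9 and equal in 2. The first 3 of these genes mark NK cells and the last pair marks ILC1. Other such genes did not all follow this direction. The NK cell gene Gzma was found in 98.4% against 92.9%, higher in 10 of 11 grafts. Among ILC1 and residency genes, Il7r was found in 12.6% against 3.17%, higher in 6 grafts and lower in 3. Xcl1 was found in 55.9% against 65.8%, higher in 6 and lower in 5, and Cd69 in 23.6% against 33.7%, lower in 8.

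Of the other genes, the activating receptor Ncr1 was found in 66.9% and 56.3%, Tbx21 in 42.5% and 35.4%, and Tnfsf10 in 7.87% and 1.87%. Of the T cell genes, Cd3d was found in 6.30% of the cells with Cxcr6 against 22.0% of those without, Cd3g in 34.6% against 35.3%, Cd3e in 0.787% against 0.793%, and Cd8a in 0.787% against 0.216%, from 1 cell against 3. After thinning to 1000 UMIs the cells were grouped anew by a remaining Cxcr6 UMI, which 73 NK cells had. The shares were then 9.59% and 35.02% for Eomes, 8.22% and 2.29% for Itga1 and 2.74% and 35.9% for Klra8. Those among the 73 cells rest on few cells with a UMI. The annotation had used these genes, so no test is given.

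**Figure D3:**
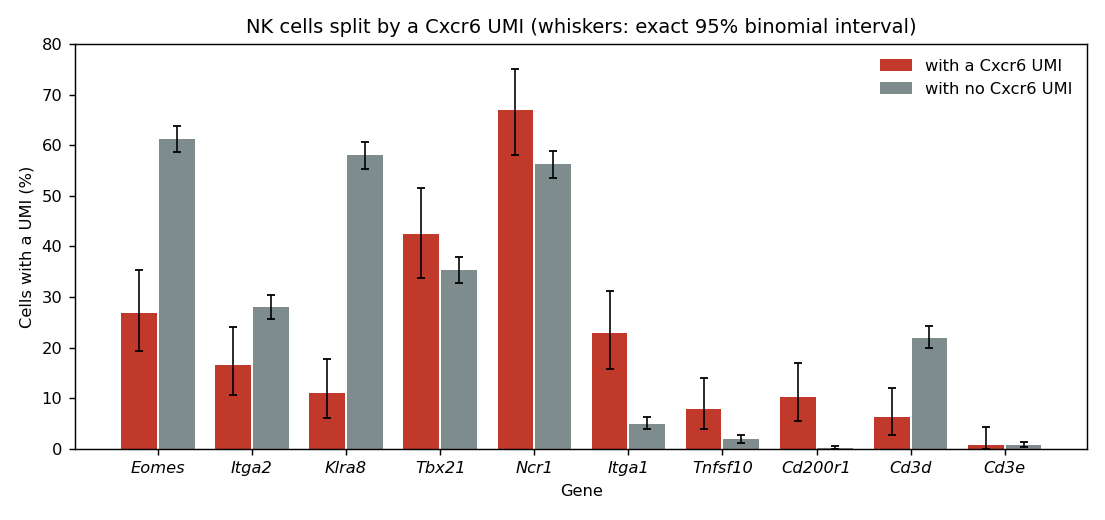
Percent of annotated NK cells with at least 1 UMI of each gene, for the 127 cells with a Cxcr6 UMI and the 1388 without, with exact 95% confidence intervals as error bars. Eomes, Itga2, Klra8 and Cd3d were lower and Itga1, Tnfsf10 and Cd200r1 higher in the cells with Cxcr6. The genes shown are a part of those compared. Gzma (98.4% against 92.9%), Xcl1 (55.9% against 65.8%) and Cd69 (23.6% against 33.7%) are not shown and ran against this direction. Il7r (12.6% against 3.17%), also not shown, followed it.

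Among ILC1 the split by Cxcr6 was weaker. Itga1 was found in 39.9% of 138 ILC1 with Cxcr6 and in 25.3% of 83 without, and Eomes in 5.80% and 14.5%. The share of NK cells with a Cxcr6 UMI was 7.28% in WT grafts at day 10, 9.49% in WT grafts at day 17, 11.8% in mutant grafts at day 10 and 4.03% in mutant grafts at day 17.

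The change from day 10 to day 17 was tested on UMIs summed per graft with edgeR's quasi-likelihood test and Benjamini-Hochberg adjustment over all genes tested in a cell type, and a gene was called at an adjusted p of at most 0.05. In NK cells, 5 of the 7 members passed the filter on low counts and Itga1 alone was called, among 12.9% of 3263 genes. Itga1 was 15.5, 19.4, 10.4 and 24.8 CPM in the WT grafts at day 10 and 27.6, 19.4, 47.5 and 21.2 in the mutant grafts. At day 17 it was 51.4, 96.7, 71.3 and 57.9 in the WT grafts and 0, 48.1, 69.1 and 104 in the mutant grafts. All day 17 grafts but that at 0 were above all day 10 grafts, and in the graft at 0, with 33 NK cells, 1 UMI was worth 12.4 CPM.

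Itga1 in NK cells thus rose from 23.2 ± 11.1 to 62.4 ± 32.3 CPM (SD, n = 8 grafts each), a log2 fold change of 1.47 (SE 0.34, adjusted p = 0.00476). An exact two-sided permutation test of its level over the grafts gave p = 0.00857, unadjusted, and neither this value nor that of Itga1 in CD8 T cells passed 0.05 when adjusted over the 27 such tests of this contrast. The share of NK cells with an Itga1 UMI went from 4.55% to 14.01%, with median depths of 2288.5 and 3064 UMIs, and from 1.41% to 4.23% after thinning. Macrophage and monocyte genes moved with the day in these cells: their 7 genes summed to a median of 175 CPM at day 10 (range 95.1 to 337) and 566 at day 17 (257 to 1133) in NK cells, against 19191 in macrophages, and their part in the result was not tested. Itga1 itself was at 17.4 ± 4.55 in macrophages at day 10, within the spread of NK cells, and at 9.06 ± 6.11 at day 17, and it was found in 7.27% and 4.63% of macrophages at these days. The shares were 10.5% and 11.2% in monocytes, and 9.82% and 25.4% in dendritic cells. After thinning they were 3.05% and 1.60% in monocytes, and 1.45% and 5.73% in dendritic cells. The part of these cells in the result was not tested either.

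The 9 T cell genes moved with the day as well, from a median of 869 CPM in NK cells at day 10 (804 to 1017) to 1164 at day 17 (1033 to 1846). In the fit without the cells that carried a Cd3 UMI, which left 14 grafts, Itga1 fell below the filter on low counts and was not tested. It averaged 29.2 ± 10.9 CPM at day 10 (SD, n = 8) and 59.95 ± 39.7 at day 17 (SD, n = 6) in the remaining cells, from 45 and 22 UMIs. In that fit without the filter, added after seeing the data, Itga1 was not called (log2 fold change 0.75, SE 0.43, adjusted p = 0.533), whereas with all NK cells and no filter it was (1.35, adjusted p = 0.000517). Leaving these cells out also removed 2 day 17 grafts.

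A further 177 cells with NK cell genes were annotated as Stem-Progenitor cells (cluster 24), and 172 of them came from day 10. They held 124 Itga1 UMIs, against 65 in the annotated NK cells of day 10. With these cells counted as NK cells, a choice also made after seeing the data, Itga1 averaged 29.7 ± 14.3 CPM at day 10 and 61.2 ± 32.1 at day 17, and was called with a smaller log2 fold change of 0.93 (SE 0.32, adjusted p = 0.0315). In that fit 1379 of 4879 genes were called, Tbx21 (log2 fold change 0.66, adjusted p = 0.0157) and Itga2 (0.63, adjusted p = 0.0298) among them.

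The other members were not called in the annotated NK cells. Eomes averaged 418 ± 94.8 and 364 ± 76.6 CPM at days 10 and 17 (log2 fold change -0.25, SE 0.13, adjusted p = 0.226), and Cxcr6 100.1 ± 69.7 and 51.0 ± 40.9 (-1.06, SE 0.47, adjusted p = 0.142). Without the filter on low counts Cxcr6 was called (log2 fold change -1.18, adjusted p = 0.000365). Tbx21 averaged 188 and 257 (adjusted p = 0.249), and Itga2 159 at both days (adjusted p = 0.957). Tnfsf10 and Zfp683 were below the filter.

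In ILC1, 3 members passed the filter and Tbx21 was called, among 15.5% of 1770 genes. It was 127 and 184 CPM in the mutant grafts and 177 and 228 in the WT grafts at day 10, and 535 and 215 in the mutant grafts and 405 and 520 in the WT grafts at day 17. The lowest day 17 value, 215, fell below the highest at day 10. Tbx21 in ILC1 thus rose from 179 ± 41.7 to 419 ± 148 (SD, n = 4 each). An exact two-sided permutation test of the level gave p = 0.0556, the smallest that 36 assignments of these grafts allow. That test could therefore not pass the threshold, whatever the levels, and decides nothing here. In the edgeR fit Tbx21 was called with a log2 fold change of 1.15 (SE 0.33, adjusted p = 0.0329). This call was kept in 3 of 12 alternative settings, and without mutant day 17 graft 2 the log2 fold change was 0.66 (adjusted p = 0.345). The macrophage and monocyte genes had medians of 83.8 and 632 CPM in ILC1 at days 10 and 17, with Csf1r at 0, and their part in the result was not tested.

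Itga1 averaged 98.9 and 163 CPM in ILC1 at days 10 and 17 (adjusted p = 0.466), and Cxcr6 606 and 709 (adjusted p = 0.730). Eomes was below the filter in ILC1, where it averaged 75.1 ± 68.1 at day 10 and 15.6 ± 15.3 at day 17 from 26 and 3 UMIs. Without the filter on low counts Eomes was called in ILC1 (log2 fold change -2.81, SE 0.83, adjusted p = 0.0370).

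In CD8 T cells, 4 members were tested and 2 were called, among 21.4% of 6379 genes. Cxcr6 was 620, 554, 622 and 597 CPM in the WT grafts and 519, 608, 613 and 729.5 in the mutant grafts at day 10, and 496, 390.2, 599 and 499 in the WT grafts and 348, 402, 414 and 432 in the mutant grafts at day 17. It fell from 608 ± 61.1 to 447 ± 79.9 (SD, n = 8 each; log2 fold change -0.59, SE 0.09, adjusted p = 2.80e-05), and the mutant grafts of day 17 lay below all grafts of day 10. Itga1 rose from 29.7 ± 10.4 to 56.7 ± 24.1 (log2 fold change 0.84, SE 0.24, adjusted p = 0.0135, exact permutation p = 0.0110), with overlap, and was not called without WT day 17 graft 2, at 100.05, where the log2 fold change was 0.61 (adjusted p = 0.101). Itga1 thus rose in both NK cells and CD8 T cells, while Cxcr6 fell in CD8 T cells and was not called in NK cells, and whether the changes differ between the cell types was not tested. Eomes averaged 55.6 ± 12.8 and 89.4 ± 51.4 (log2 fold change 0.50, adjusted p = 0.0981) and was called without mutant day 17 graft 1 (0.65, adjusted p = 0.0171).

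In CD4 T cells, 5 members were tested and Cxcr6 was called, among 36.6% of 7858 genes. It fell from 669.7 ± 73.9 to 512 ± 147 CPM (SD, n = 8 each; log2 fold change -0.52, SE 0.11, adjusted p = 0.00116), and the ranges overlapped, since 1 WT graft of day 17 stood at 815. Itga1 averaged 15.2 and 29.1 (log2 fold change 0.72, adjusted p = 0.0694) and was called without the filter on low counts (0.65, adjusted p = 0.00748). In regulatory T cells, Cxcr6 was the only member tested and was not called, beside 15.7% of 2331 genes, except without WT day 17 graft 3 (log2 fold change -2.26, adjusted p = 0.0241). The macrophage and monocyte genes had medians of 156 and 717 CPM at days 10 and 17 in CD8 T cells and 144 and 642 in CD4 T cells, and their part in these results was not tested.

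**Figure D4:**
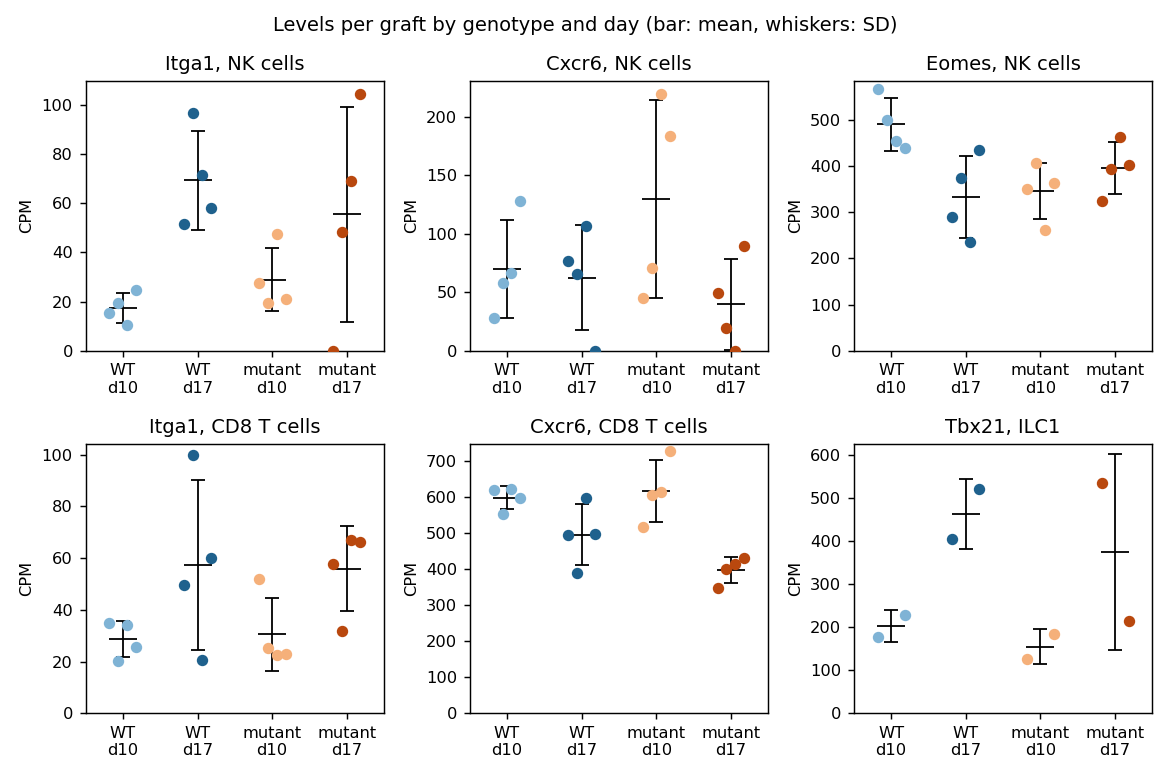
Level per graft, in CPM, of Itga1, Cxcr6 and Eomes in NK cells, Itga1 and Cxcr6 in CD8 T cells and Tbx21 in ILC1, by genotype and day, with mean and SD. Itga1 stood higher at day 17 in NK cells except in 1 mutant graft at 0, and Cxcr6 stood lower at day 17 in CD8 T cells.

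Genes of the same lineages were read by list for the change with day in NK cells, where 6.34% of all genes were called higher and 6.56% lower and the median log2 fold change was 0.02. Of 15 mature NK cell genes tested, 1 rose and 1 fell, with a median of 0.17. Klf2, a factor of lymphocyte recirculation, rose from 164 to 360 CPM (log2 fold change 1.15, SE 0.26, adjusted p = 0.00451), and Zeb2, a factor of NK cell maturation, fell from 334 to 202 (adjusted p = 0.0399). Of 12 ILC1 and residency genes, 2 rose and 1 fell (median 0.03). Cd69, a retention and activation receptor, rose from 195 to 434 (adjusted p = 0.00152), the lipid phosphatase gene Inpp4b rose from 70.5 to 113 (adjusted p = 0.0467) and Ltb, which encodes lymphotoxin beta, fell from 155 to 79.9 (adjusted p = 0.00533).

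Of 18 genes shared by group 1 innate lymphoid cells, 7 rose and 1 fell in NK cells (median 0.26). Ncr1, which encodes the activating receptor NKp46, rose from 361 to 661 CPM (adjusted p = 0.000996), as did the signalling adaptor Fcer1g, the receptor subunit Klrd1, the granule protein gene Nkg7 and the cathepsin gene Ctsw by 0.50 to 0.55 on the log2 scale. Car2, a carbonic anhydrase, fell by 1.05 (adjusted p = 0.000451). Of 13 transcription factors of these lineages (median -0.13), Tox rose from 104 to 184 (adjusted p = 0.00784) and Stat4, which acts after interleukin-12, rose from 982 to 1444 (adjusted p = 0.0115), and none was called lower. Of 7 ligands, partners and receptors (median -0.03), Il18r1, a subunit of the interleukin-18 receptor, fell from 698 to 402 (adjusted p = 6.46e-06).

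In ILC1 7.29% of all genes were called higher and 8.25% lower, with a median of 0.04. Of 7 mature NK cell genes tested (median -0.96), Gzmb, a granzyme, fell from 1882 to 314 CPM (log2 fold change -3.01, SE 0.42, adjusted p = 0.00214) and Klf2 rose from 46.3 to 177 (adjusted p = 0.0329). Of 15 ILC1 and residency genes 3 rose and 0 fell (median 0.81), namely Inpp4b from 319 to 753, Cd69 from 100.3 to 395 and Il7r from 96.8 to 196. Of 16 shared genes (median 0.30), Il18rap and Klrc1 rose and Tyrobp, an adaptor of activating receptors that macrophages also express, fell from 1022 to 397 (adjusted p = 0.0135). Of 11 transcription factors (median 0.62), Stat4 rose from 523 to 1823 (adjusted p = 0.00419), Bach2 rose from 194 to 498, and Runx3 fell from 637 to 332. Of 5 ligands, partners and receptors (median 0.92), Smad3, which carries TGF-beta signals, rose from 62.4 to 197. The high median was thus not particular to the residency genes. The ILC1 fit rested on 8 grafts with 11 to 60 cells each, and calls in it fell from 275 to 93 with the hashtag number as a replicate block.

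Between Rnls mutant and WT grafts, no member was called in any of the 5 cell types over both days, nor in NK cells and ILC1 at either day or in the interaction of genotype and day. Over both days 0.0% of genes were called in NK cells, ILC1, CD8 T cells and regulatory T cells and 0.0127% in CD4 T cells, and in NK cells 0.0306% were called at day 10, 0.184% at day 17 and 0.398% for the interaction. In ILC1 the shares were 0.0% at day 10, 0.0565% at day 17 and 0.0565% for the interaction. At an unadjusted p under 0.05 the counts over both days were 123 of 3263 genes tested in NK cells and 79 of 1770 in ILC1. They were 425 of 6379 in CD8 T cells and 147 of 2331 in regulatory T cells. After adjustment DESeq2 called 0, 0, 3 and 0 genes in these 4 cell types. The p-values here and above measure the spread between these grafts, which the labels do not tie to separate mice, and WT and mutant grafts of a day shared mice in a way that could not be entered into the fit.

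Eomes in NK cells of day 10 was 567, 499, 455 and 440 CPM in the WT grafts and 351, 407, 261 and 362 in the mutant grafts. The groups did not overlap, with means of 490.3 ± 57.2 and 345 ± 60.9 (SD, n = 4 each), and the exact two-sided permutation test of the level gave p = 0.0286, the smallest that 70 assignments of these grafts allow. Across all genes the difference was not called (log2 fold change -0.53, SE 0.17, adjusted p = 0.614), nor with cluster 24 counted as NK cells (-0.79, adjusted p = 0.0549). At day 17 the means were 333 ± 88.2 in WT and 396 ± 57.1 in mutant grafts, with overlap, and the interaction was not called (log2 0.84, adjusted p = 0.268). Tbx21 in NK cells of day 10 did not overlap either, at 203 ± 23.4 in mutant and 173 ± 7.93 in WT grafts (exact permutation p = 0.0286, adjusted p = 0.994 in the edgeR fit), and 27 such single-gene tests were run for this contrast. In CD8 T cells of day 10, where 0.314% of genes were called between genotypes, Tbx21 also did not overlap, at 129 ± 9.36 in mutant and 100.3 ± 11.9 in WT grafts (exact permutation p = 0.0286, log2 fold change 0.33, adjusted p = 0.728 in the edgeR fit).

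In ILC1, Cxcr6 at day 10 averaged 350.02 CPM in the 2 mutant grafts and 861 in the 2 WT grafts, a design in which no permutation p can fall below 0.333, and the log2 fold change for both days together was -0.97 (adjusted p = 0.998). The day 10 mutant grafts stood at 107 and 593, and the WT grafts at 708 and 1015. In regulatory T cells, where 0.0429% of genes were called between genotypes at day 17 and 1.12% for the interaction, Cxcr6 was not called (log2 fold change -2.49, adjusted p = 0.306, and -2.62, adjusted p = 0.281). At day 17 it was 57.8, 0 and 20.3 CPM in the mutant grafts and 23.1, 342 and 0 in the WT grafts, so that 1 WT graft, with 41 UMIs, stood above all others. With a minimum of 20 cells that graft was the only WT graft of day 17, assumed to vary like the other groups, and Cxcr6 was then called at day 17 (-3.46, adjusted p = 0.00241) and for the interaction (-3.58, adjusted p = 0.00799), as it was at day 17 without the filter (-2.43, adjusted p = 0.0243).

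None of the genes of the 5 lists was called between genotypes over both days in NK cells or ILC1. In this contrast 0 of 3263 genes tested in NK cells and 0 of 1770 in ILC1 were called. The absence of calls is therefore not particular to the lists.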

How the data were processed

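Single CD45+ cells from 16 grafts were profiled with a droplet 3' kit in 4 libraries. The authors deposited a table of UMI counts per gene and cell, made with Cell Ranger on mm10 per the submitters' processing notes, with cell types, clusters and hashtag assignments in a second table. The table held only cells with at least 1001 UMIs and at most 9.74% mitochondrial UMIs. How doublets were treated is not given in the sources used here, and no caller was run.

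Counts were summed per graft and annotated cell type, and levels were given as CPM, per 1000000 UMIs of that sum, for types with at least 10 cells in a graft. The sums were tested with edgeR 4.0.16 in R 4.3.3 (filterByExpr, TMM scaling, quasi-likelihood fit on genotype and day, Benjamini-Hochberg adjustment over all genes tested, threshold 0.05), and the method was tested on simulated data. Single levels were also compared by exact two-sided permutation over grafts (SciPy 1.17.1). DESeq2 1.42.0, no filter, other cell minimums, a hashtag block, each graft left out, cells with Cd3 UMIs left out and thinning to 1000 UMIs were the alternatives. Exact binomial intervals were at the 95% level.

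The 7 members and the 5 gene lists were chosen with earlier results of these data known. List genes were named where called in NK cells or ILC1, at most 6 per list, smallest p first, and for each member the 3 genes with the highest r were named. Promoters were read from RefSeq, GRCm38.p6.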

Additional observations from a re-analysis of the deposited data

Results flagged for a closer look

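In groups of 4 grafts, 74 sets of values were screened for a single graft far from the other 3, of which chance marks about 1 in 20, and 5 were marked. Tbx21 in NK cells of mutant day 17 graft 4 was 432.5 CPM, against 145 to 187 in the other grafts of the group, from 29 UMIs in 28 cells. Tbx21 in CD8 T cells of that same graft was 321 against 98.7 to 113, from 29 UMIs in 43 cells. Itga2 in NK cells of WT day 17 graft 2 was 269.5 against 114 to 135, from 78 UMIs. Itga1 in CD8 T cells of mutant day 10 graft 1 was 51.8 against 22.4 to 25.4, from 50 UMIs. Itga2 in CD4 T cells of mutant day 10 graft 4 was 2.42 against 5.90 to 6.55, from 5 UMIs. The interaction of genotype and day was tested for 18 pairs of member and cell type, and 0 passed the adjusted threshold in the fits with at least 10 cells per graft. With at least 20 cells Cxcr6 in regulatory T cells passed (log2 -3.58, adjusted p = 0.00799), where WT day 17 was a single graft.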

How the results depend on the processing

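The log2 ratio of NK cells to ILC1 kept its direction for Eomes, Itga2, Cxcr6, Itga1, Tnfsf10 and Tbx21 in every alternative run. Leaving out cells with a Cd3 UMI moved it to 4.15 for Eomes, -4.15 for Cxcr6 and -1.04 for Tnfsf10 over 5 grafts, and leaving out cells above 2 times the median UMIs moved it to 4.10 for Eomes and -4.21 for Cxcr6. A minimum of 20 cells, which left 2 grafts, gave -4.40 for Cxcr6 and -1.11 for Tbx21. Thinning to 1000 UMIs moved the log2 ratio of the shares of cells with an Eomes UMI from 2.69 to 3.42. Counting cluster 24 as NK cells, a choice made after seeing the data, gave 2.87 for Eomes and -3.83 for Cxcr6.

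Genes called between the days in ILC1 numbered 275, 176 with DESeq2 and 101 to 325 with each graft left out (101 without mutant day 17 graft 2 and 110 without WT day 10 graft 1). In regulatory T cells they numbered 366, and 232 with DESeq2. Between genotypes, leaving out the filter gave 1 gene in NK cells, 3 in ILC1, 16 in CD8 T cells, 63 in CD4 T cells and 2 in regulatory T cells, and DESeq2 gave 3 in CD8 T cells and 8 in CD4 T cells. Leaving out cells with Cd3 UMIs gave 1 gene in NK cells, and 3 without the filter as well. With each graft left out the genotype counts were 0 to 1 in ILC1, 0 to 1 in CD8 T cells and 0 to 3 in CD4 T cells.

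With the hashtag number as a replicate block, calls between the days in ILC1 fell to 93 and calls between genotypes in CD4 T cells numbered 3. The numbers are not known to pair grafts, as same-numbered grafts deviated together with r of only -0.06 to 0.29. Under the block the day change of Tbx21 in ILC1 was not called (log2 fold change 0.90, adjusted p = 0.176), while Itga1 in NK cells was (1.42, adjusted p = 0.0107).

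Counting settings that leave the same grafts once, the day changes of Cxcr6 in CD8 T cells and in CD4 T cells were called in 19 of 19 alternatives each and that of Itga1 in CD8 T cells in 18 of 19. Itga1 in NK cells was called in 20 of 21, was not called without Cd3 cells and without the filter (0.75, adjusted p = 0.533), and was not tested without Cd3 cells under the filter. Counting cluster 24 as NK cells gave 1379 genes called in place of 421 and turned Eomes to 0.13 (not called) and Itga2 to 0.63 (adjusted p = 0.0298). Adjusted p for Tbx21 in ILC1 ranged from 0.00920 to 0.345 over 12 alternatives, with 0.158 in DESeq2 and 0.0623 without the filter. Other signs changed only for day changes that were not called. Without the filter Tbx21 in CD8 T cells was -0.0016, and with at least 20 cells Cxcr6 in regulatory T cells was 0.12. With each graft left out, Cxcr6 in ILC1 ranged from -0.54 to 0.97, Eomes in CD4 T cells from -0.65 to 0.078, Itga2 in NK cells from -0.25 to 0.066 and Tbx21 in CD8 T cells from -0.087 to 0.19. The ILC1 fits without Cd3 cells and with at least 20 cells were not run, as 5 and 2 grafts remained. The cause of these shifts was not tested. Depth limits Tnfsf10 and Zfp683 most, and Eomes and Itga2 in ILC1 rest on 29 and 6 UMIs.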

Other observations

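Some cells annotated as Stem-Progenitor cells carried the NK cell genes. Cluster 24 of that annotation held 177 cells, 172 from day 10 and 5 from day 17, with a median of 12676 UMIs per cell. Eomes was found in 69.5% of them, Ncr1 in 87.6%, the granzyme Gzma in 99.4%, Klra8 in 36.2% and Itga2 in 17.5%, whereas Cd3e was found in 1.13%. The proliferation genes Mki67 and Top2a were found in 48.6% and 56.5%. Itga1 was found in 36.2% and Cxcr6 in 10.2% of these cells. At this depth shares are not comparable with those of the annotated NK cells, and per UMI Eomes stood at 127 CPM, pooled over the cluster. Cluster 11 of the same annotation, with 653 cells and a median of 8820 UMIs, had Cd3e in 96.5%, Cxcr6 in 71.7%, Mki67 in 89.6%, Eomes in 18.7% and Ncr1 in 2.30% of cells. Neither cluster entered the NK cells compared above.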
